A study of Mus musculus with 4 samples.

Results

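BAFF-R (Tnfrsf13c), TACI (Tnfrsf13b), BCMA (Tnfrsf17), CD40 (Cd40), the adaptors TRAF2, TRAF3 and TRAF6 (Traf2, Traf3, Traf6), the kinase NIK (Map3k14) and the ubiquitin ligases cIAP1 and cIAP2 (Birc2, Birc3) were examined for MIZ-1 peaks by chromatin immunoprecipitation followed by sequencing (ChIP-seq). These 10 genes were taken by name, for their place in BAFF and CD40 signaling, from 55450 annotated mouse genes, of which 21951 code for proteins. All 10 were in the annotation. Every peak that touched a window from 2000 bp before to 1000 bp after a transcript start of a gene was taken as a promoter peak of that gene, and every other peak in the gene as a gene body peak.

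The libraries were made from splenocytes carrying B220, a surface marker of B lineage cells, and precipitated with the H-190 antibody against MIZ-1. MIZ-1WT cells had wild-type MIZ-1. MIZ-1DPOZ cells came from mice with MB1-cre and a Miz-1 allele whose POZ domain is floxed, in which Cre is expressed from the Cd79a locus and so in B lineage cells. The mice were on a C57BL/6 background and, by the study's methods, 40 to 70 days old. Each genotype had 1 ChIP library, and 1 library of its input chromatin, which makes 4 in all, so that genotype and library cannot be told apart and no difference below has a replicate check or a p-value. Peak lists hold no RNA levels, and the B220+ label was not checked against marker genes.

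BAFF is the main survival factor of mature B cells and acts through BAFF-R, while TACI and BCMA also bind it and BCMA is typical of plasma cells. In resting B cells, TRAF3 brings NIK to TRAF2 and the cIAP ligases, which mark NIK for degradation. When BAFF-R or CD40 is engaged, TRAF3 is degraded instead, NIK accumulates, and the NF-kB2 precursor is processed to its active form. CD40 also binds TRAF6, an adaptor of the canonical NF-kB pathway. MIZ-1 is a zinc finger transcription factor whose POZ domain lets it oligomerize and bind partner proteins.

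MIZ-1WT promoter peaks were present at Traf3 and Map3k14. MIZ-1DPOZ promoter peaks were present at these same 2 genes and also at Tnfrsf13c and Traf6. The MIZ-1DPOZ list was the longer, with 78357 peaks against 34209, and when only as many of its peaks were kept, those of largest −log10 q, its promoter peaks were at 2 of the 10 genes, Traf3 and Map3k14, as in MIZ-1WT. The share of all protein-coding genes at that list length is not given here. None of the other 6 genes had a promoter peak in either list. The 101 bases around the summits in promoters are shown first, since they are the DNA on which the promoter results rest. They are written 5′ to 3′ on the strand of the gene, in the mm10 (GRCm38) assembly, with CpG dinucleotides in capitals, and bases of untranslated exons are left out.
Traf3, MIZ-1WT, summit upstream of the first start, chr12:111166285-111166369, plus strand: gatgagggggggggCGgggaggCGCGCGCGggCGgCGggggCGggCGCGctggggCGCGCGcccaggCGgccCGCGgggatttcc
Traf3, MIZ-1WT, summit in the first intron, chr12:111166768-111166868, plus strand: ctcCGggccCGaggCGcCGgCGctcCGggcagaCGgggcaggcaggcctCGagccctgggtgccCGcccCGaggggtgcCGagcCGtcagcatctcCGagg
Map3k14, MIZ-1WT, summit in the first intron, chr11:103267205-103267305, minus strand: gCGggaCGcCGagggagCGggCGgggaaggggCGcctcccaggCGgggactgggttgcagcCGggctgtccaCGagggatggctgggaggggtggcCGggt
Map3k14, MIZ-1DPOZ, summit in the first intron, chr11:103267125-103267225, minus strand: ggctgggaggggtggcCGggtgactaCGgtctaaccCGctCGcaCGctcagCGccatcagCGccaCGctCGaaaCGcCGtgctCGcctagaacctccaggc
Tnfrsf13c, MIZ-1DPOZ, summit in the first coding exon, chr15:82224250-82224312, minus strand: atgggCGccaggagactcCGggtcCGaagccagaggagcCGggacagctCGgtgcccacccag
Traf6, MIZ-1DPOZ, summit in the first intron, chr2:101678682-101678782, plus strand: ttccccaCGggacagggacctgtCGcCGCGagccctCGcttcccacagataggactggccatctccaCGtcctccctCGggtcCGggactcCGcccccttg

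All were rich in GC, as promoter summits were in general. The whole 101 base windows held from 8 (Tnfrsf13c) to 19 (Traf3) CpG dinucleotides. The median over promoter peaks of protein-coding genes was 12 in MIZ-1WT and 10 in MIZ-1DPOZ. The GC content of the whole 101 base window was 85.1% and 80.2% at the Traf3 MIZ-1WT summits and 83.2% at the Traf3 MIZ-1DPOZ summit, whose own bases are not shown because it fell in the 5′ untranslated part of the first exon. It was 78.2% and 69.3% at the MIZ-1WT and MIZ-1DPOZ summits of Map3k14, and 69.3% at both Tnfrsf13c and Traf6. Over all promoter peaks of protein-coding genes, the median was 74.3% (quartiles 69.3% and 79.2%, 7586 peaks) for MIZ-1WT and 72.3% (66.3% and 76.2%, 13153 peaks) for MIZ-1DPOZ. Traf3 was therefore above the upper quartile in both lists, and the MIZ-1DPOZ summits of the other 3 genes lay between the lower quartile and the median.

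The windows were searched on both strands for short sequence elements. The GC box GGGCGG was in 5 of the 7 promoter summit windows, namely both MIZ-1WT windows of Traf3, its MIZ-1DPOZ window, the MIZ-1WT window of Map3k14 and the window of Traf6. It was in 45.7% of MIZ-1WT and 37.2% of MIZ-1DPOZ promoter summit windows of protein-coding genes. The E-box CACGTG, the ETS core CCGGAA and CCAAT were in none of the 7, and each was in under 6% of the promoter summit windows of either list. The upstream MIZ-1WT window of Traf3 held 1 match to the kappaB consensus, GGGGATTTCC, which starts at chr12:111166360 and ends directly before the first Traf3 start at 111166370. A match to this consensus was in 2.72% of MIZ-1WT promoter summit windows. A match describes the letters of a window and does not show that a factor binds there.

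**Figure D1:**
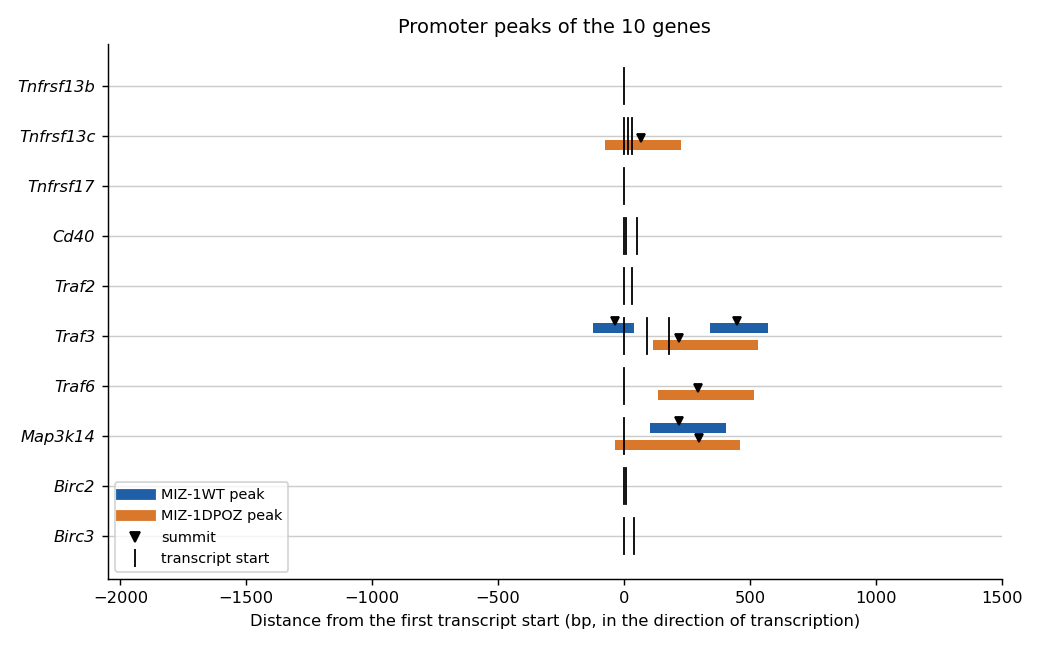
Positions of promoter peaks at the 10 genes, one row per gene, with distance from the first transcript start in bp on the horizontal axis, negative before the start. Bars are peaks (blue MIZ-1WT, orange MIZ-1DPOZ), triangles their summits and vertical ticks the annotated starts. Later starts of Tnfrsf13b and Birc2 lie beyond the range shown. Of the 10 genes, 4 have a promoter peak, and the MIZ-1WT list has one at only Traf3 and Map3k14.

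The share of the 10 genes with a promoter peak was below that of all protein-coding genes in both lists, but the intervals of 10 genes are wide. In the MIZ-1WT list 2 of 10 had one, which is 20% (95% Wilson interval 5.67% to 51%), against 30.9% of 21951 protein-coding genes. With MIZ-1DPOZ, 4 of 10 had one, which is 40% (16.8% to 68.7%), against 48.7%. Both lists had a promoter peak at 2 of 10, against 26.6%. Each interval includes the value of all protein-coding genes. Against all 55450 annotated genes, of which 16.9% had a MIZ-1WT and 28.9% a MIZ-1DPOZ promoter peak, the shares of the 10 genes were the higher ones, by 3.13 and 11.1 percentage points. The direction thus depends on the genes compared with, and only 21951 of the 55450 code for proteins, as all 10 genes do. The Wilson intervals treat the 10 genes as a sample and cover counting error only.

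The height of a peak is given here as its pileup, the number of fragments over its summit, which was solved from the deposited fold enrichment and p-value. The 8 MIZ-1WT peaks of the 10 genes had pileups of 7 to 12 (median 8.5) and the 15 MIZ-1DPOZ peaks of 7 to 18 (median 11). Over the whole lists, the median was 9 (quartiles 8 and 11, 34209 peaks) in MIZ-1WT and 12 (10 and 16, 78357 peaks) in MIZ-1DPOZ. Above the upper quartile of their list were the Traf3 promoter peaks of MIZ-1WT, at 12, and the Map3k14 promoter peak of MIZ-1DPOZ, at 18, and the other peaks of the 10 genes were at or below it. The smallest pileup that was called was 5 in the MIZ-1WT and 6 in the MIZ-1DPOZ list, only a few fragments below them. The MIZ-1DPOZ ChIP library was estimated, from the background and smallest peak width of each list, to be 1.34 times as deep as the MIZ-1WT library. Its pileups are also given scaled by this ratio to MIZ-1WT depth. The most frequent background was 1.348 fragments in MIZ-1DPOZ and 0.86 in MIZ-1WT, a ratio larger than 1.34, so the scaled pileups are approximate.

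**Figure D2:**
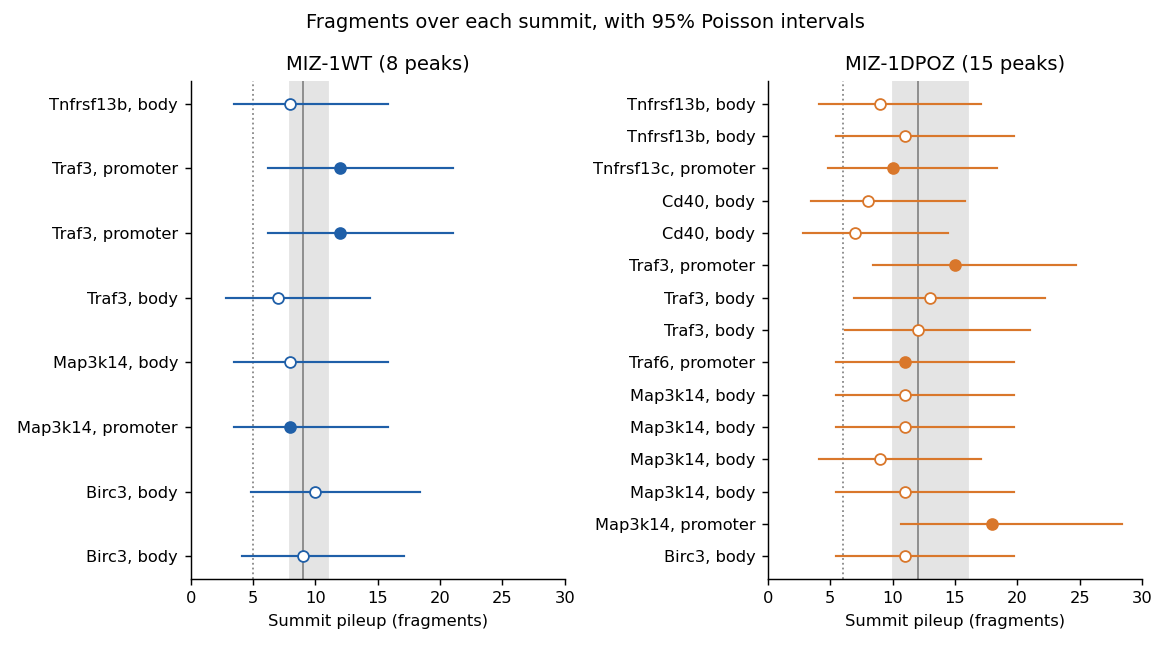
Summit pileup in fragments (horizontal axis) of each of the 8 MIZ-1WT peaks (left) and 15 MIZ-1DPOZ peaks (right), with exact 95% Poisson intervals. Filled circles are promoter peaks, open circles gene body peaks, the grey band spans the quartiles of the whole list, the solid line is its median and the dotted line its smallest pileup. Only Traf3 promoter peaks in MIZ-1WT and the Map3k14 promoter peak in MIZ-1DPOZ, at 18, lie above their band.

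Among the receptors, Tnfrsf13c was the only one with a promoter peak, and it had none in the MIZ-1WT list. The MIZ-1DPOZ peak at chr15:82224142-82224446 covered all annotated starts of the gene, with its summit at 82224300, 39 bp after the nearest start and in the first coding exon. Its fold enrichment was 4.22, its −log10 q 3.54 and its pileup 10 (exact 95% Poisson interval 4.8 to 18.4). It was a low peak, with a larger −log10 q at 77.3% of the MIZ-1DPOZ list. At MIZ-1WT depth the pileup came to 7.46 (3.58 to 13.7), an interval that reaches below the smallest called MIZ-1WT pileup of 5. The nearest MIZ-1WT summit lay 11.6 kb away, and a difference between the genotypes at this promoter was not detectable at this depth.

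Tnfrsf13b, which encodes the BAFF and APRIL receptor TACI, had peaks in the gene body in both lists and none at its promoter. The MIZ-1WT peak at chr11:61147293-61147599 had its summit in a coding exon near the end of the gene, with a pileup of 8 (3.45 to 15.8). A MIZ-1DPOZ peak at chr11:61147190-61147401, with a pileup of 11 (5.49 to 19.7), overlapped it by 109 bp, but its summit was 241 bp away in an intron. The ratio of the pileups, MIZ-1DPOZ over MIZ-1WT after scaling for depth, was 1.03 (exact interval 0.376 to 2.94). Scaled by the local background of each peak instead, this ratio was 0.876. The sequence at the MIZ-1WT summit is given because its 13 CpG dinucleotides in 101 bases are more than at 97.8% of the MIZ-1WT peaks outside promoters.
Tnfrsf13b, MIZ-1WT, summit in a coding exon, chr11:61147491-61147591, plus strand: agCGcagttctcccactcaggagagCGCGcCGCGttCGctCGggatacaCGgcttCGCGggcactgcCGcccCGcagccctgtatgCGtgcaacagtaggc
A further MIZ-1DPOZ peak at chr11:61129048-61129245 had its summit in the first intron, 2.42 kb after the first start and so beyond the promoter window, with a pileup of 9 (4.12 to 17.1).

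Cd40 had no MIZ-1WT peak, and its nearest MIZ-1WT summit was 21 kb from a start. Its MIZ-1DPOZ peaks, at chr2:165069653-165069825 and chr2:165070256-165070476, had their summits in introns toward the 3′ end of the gene. Their pileups of 8 (3.45 to 15.8) and 7 (2.81 to 14.4) were among the lowest of the list, in which 90.4% and 97.6% of peaks had a larger −log10 q. Tnfrsf17, the BCMA gene, had no peak in either list, the nearest summits being 47.5 kb away in MIZ-1WT and 9.26 kb in MIZ-1DPOZ.

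**Figure D3:**
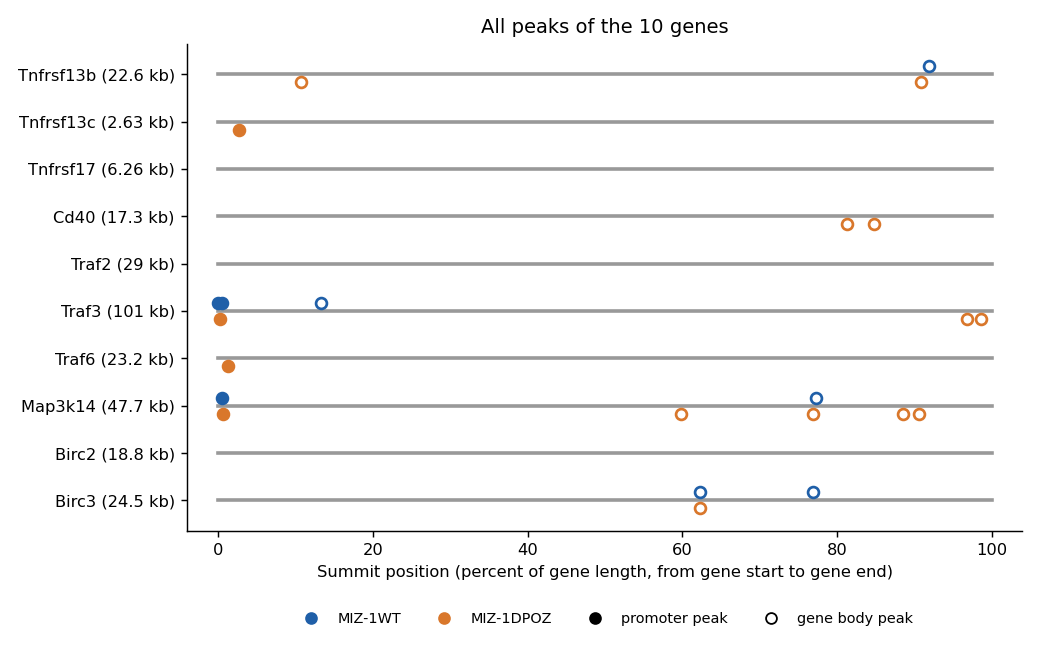
Summits of all 23 peaks of the 10 genes, placed by percent of gene length from gene start (0) to gene end (100), with the gene length beside each name. Filled circles are promoter peaks and open circles gene body peaks, in blue for MIZ-1WT and orange for MIZ-1DPOZ. Tnfrsf17, Traf2 and Birc2 have none. Gene body peaks of the lists overlap in Tnfrsf13b, Map3k14 and Birc3, with summits 241, 172 and 5 bp apart.

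Of the adaptors, Traf3 had promoter peaks in both lists, Traf6 in the MIZ-1DPOZ list and Traf2 in none. At Traf3 the MIZ-1WT list had a pair of peaks, with summits on either side of the group of 3 annotated starts. The first, at chr12:111166247-111166409, had its summit 35 bp before the first start, with a fold enrichment of 6.53, a −log10 q of 6.42 and a pileup of 12 (6.2 to 21). The second, at chr12:111166713-111166943, had its summit in the first intron, 270 bp after the nearest start, with a fold enrichment of 6.48, a −log10 q of 6.35 and a pileup of 12 (6.2 to 21). They were the highest MIZ-1WT peaks of the 10 genes, and 13.5% and 13.7% of the list had a larger −log10 q.

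The MIZ-1DPOZ list had a single Traf3 promoter peak, at chr12:111166484-111166901. Its summit lay between those of MIZ-1WT, 39 bp after the nearest start, with a fold enrichment of 6.71, a −log10 q of 8.76 and a pileup of 15 (8.4 to 24.7), or 11.2 (6.26 to 18.5) at MIZ-1WT depth. It overlapped the second MIZ-1WT peak over 189 bp, which is 81.8% of that peak and 45.2% of its own width, and it did not reach the first. The summits of the overlapping peaks were 231 bp apart. Their depth-scaled ratio was 0.932 (0.407 to 2.18), so that no difference in height was detectable. The first Traf3 MIZ-1WT peak therefore overlapped no peak of the MIZ-1DPOZ list, although 1 gene was counted in both. It ended at 111166409, shortly before the MIZ-1DPOZ peak began at 111166484. The lists do not show whether MIZ-1DPOZ fragments lay there below the calling limit.

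Within the Traf3 gene, which is 101 kb long, the lists had no gene body peak in common. The MIZ-1WT peak at chr12:111179651-111179798 had its summit in an intron, with a pileup of 7 (2.81 to 14.4). Of the bases around this summit, 92.1% were masked as repeat in the genome, a run of TG repeats. The MIZ-1DPOZ list had peaks with summits in the 3′ untranslated exon, at chr12:111263800-111264008 and chr12:111265709-111265881. Their pileups were 13 (6.92 to 22.2) and 12 (6.2 to 21). The local background there was 2.11 and 2.02 fragments, against 1.348 as the most frequent background of the list. The promoter peaks of Traf3 in both lists also lay in the gene 4930595D18Rik, which overlaps Traf3.

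Traf6 had its MIZ-1DPOZ promoter peak at chr2:101678574-101678958, with the summit 292 bp after the start in the first intron. Its fold enrichment was 5.11, its −log10 q 5.05 and its pileup 11 (5.49 to 19.7), close to the middle of the list, since 49.5% of MIZ-1DPOZ peaks had a larger −log10 q. At MIZ-1WT depth the pileup came to 8.2 (4.1 to 14.7), and this interval too reaches below 5. The nearest MIZ-1WT summit was 76.8 kb away, but a MIZ-1WT peak of that size was not sure to be detected at this depth. Traf2 had no peak in either list, and its nearest summits were 46.1 kb (MIZ-1WT) and 10.8 kb (MIZ-1DPOZ) from a start.

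Map3k14, the gene of NIK, had the highest peak of the 10 genes. In the MIZ-1WT list its promoter peak at chr11:103267065-103267367 had the summit 217 bp after the start, a fold enrichment of 4.84, a −log10 q of 3.28 and a pileup of 8 (3.45 to 15.8). In the MIZ-1DPOZ list the peak at chr11:103267013-103267509 contained all of the MIZ-1WT peak. Its summit was 297 bp after the start, with a fold enrichment of 7.74, a −log10 q of 11.59 and a pileup of 18 (10.7 to 28.4), or 13.4 (7.96 to 21.2) at MIZ-1WT depth. Both summits were in the first intron, 80 bp apart. The depth-scaled ratio was 1.68 (0.694 to 4.46), the largest of the overlapping pairs, and its interval includes 1. Scaled by the local background of each peak instead, the ratio was 1.33. The peaks also fell in the promoter window of the noncoding transcript 1700028N14Rik, whose start was 490 bp from the MIZ-1WT and 570 bp from the MIZ-1DPOZ summit, and they cannot be assigned to one gene or the other.

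In the body of Map3k14 there were 1 MIZ-1WT and 4 MIZ-1DPOZ peaks, all with their summits in introns. The MIZ-1WT peak at chr11:103230510-103230729 (pileup 8, 3.45 to 15.8) overlapped a MIZ-1DPOZ peak at chr11:103230561-103230863 (pileup 9, 4.12 to 17.1), with summits 172 bp apart and a ratio of 0.839 (0.287 to 2.5). The other 3 MIZ-1DPOZ peaks, 28562 bp to 43240 bp after the start, each had a pileup of 11. None of the 5 was above the median of its list.

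The ubiquitin ligase genes lie side by side on chromosome 9, and neither had a promoter peak. Birc2 had no peak at all, and its nearest summits were 17.3 kb and 20.9 kb from a start in MIZ-1WT and MIZ-1DPOZ. Birc3 had MIZ-1WT peaks with summits in introns, at chr9:7854220-7854371, with a pileup of 10 (4.8 to 18.4), and at chr9:7857863-7858035, with a pileup of 9 (4.12 to 17.1). The second overlapped a MIZ-1DPOZ peak at chr9:7857675-7858019, which had a pileup of 11 (5.49 to 19.7). Their summits were 5 bp apart, the closest of any pair at the 10 genes, and their ratio was 0.911 (0.343 to 2.49).

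The shared Birc3 peaks lay on a tandem repeat. The 50 bases at the MIZ-1WT summit occurred 8 times in the genome, each copy 43 bp after the one before, all within the 351 bp of chr9:7857767-7858117. All 173 bp of the MIZ-1WT peak were inside this stretch. For the MIZ-1DPOZ summit the copies again numbered 8, and 248 bp of that peak were inside. The repeat unit and the summit window are shown because no other peak at the 10 genes had copies of all 5 sequences of 50 bases read around its summit, and they hold no CpG.
Birc3 repeat unit, minus strand: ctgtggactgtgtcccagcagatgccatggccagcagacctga
Birc3, MIZ-1WT, summit in an intron, chr9:7857871-7857971, minus strand: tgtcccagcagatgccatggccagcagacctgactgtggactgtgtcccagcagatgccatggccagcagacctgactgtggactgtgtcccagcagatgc
How reads with several equal matches were placed is not stated in the sources used here, and their part in this peak was not tested. At the first Birc3 peak, 2 of the 5 sequences of 50 bases read around the summit had further copies in the genome, one of them 87682 in number. At the other 20 peaks of the 10 genes, all 5 were unique.

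In all, the MIZ-1WT list had 8 peaks at 4 of the 10 genes and the MIZ-1DPOZ list 15 peaks at 7. Gene body peaks were present in 4 of 10 genes in MIZ-1WT and 5 of 10 in MIZ-1DPOZ, against 24.2% and 42.7% of all protein-coding genes. Since long genes hold more peaks by their length alone, the number per 100 kb of gene outside promoter windows was also taken. It was 1.8 for the 10 genes and 1 for all protein-coding genes in MIZ-1WT (5 peaks in 278 kb), and 3.96 and 2.58 in MIZ-1DPOZ (11 peaks). With so few peaks these rates are descriptions only. Of the 11 MIZ-1DPOZ gene body peaks, 0 were left with lists of equal length, 2 at a −log10 q of 5 or more and 2 at a fold enrichment of 5 or more. Of the 5 MIZ-1WT peaks, 1 and 2 passed these last limits. Over the whole lists, the median −log10 q and fold enrichment were 5.05 and 5.11 in MIZ-1DPOZ, and 3.78 and 4.84 in MIZ-1WT. The share of all gene body peaks that passed these limits is not given here. Of the 8 MIZ-1WT peaks 5 overlapped a MIZ-1DPOZ peak, against 53.7% of the whole MIZ-1WT list, and of the 15 MIZ-1DPOZ peaks 5 overlapped a MIZ-1WT peak, against 22.1% of the whole MIZ-1DPOZ list. Of the 5 overlapping pairs, 2 were at promoters and 3 in gene bodies, and the interval of the depth-scaled ratio of heights included 1 in all 5. Pairs were formed only where both lists had a called peak. The intervals were wide, reaching down to 0.287 and up to 4.46, so that only large differences could be seen. Scaled by local background, the promoter ratios were 0.915 (Traf3) and 1.33 (Map3k14). The gene body ratios were then 0.876 (Tnfrsf13b), 0.792 (Map3k14) and 0.779 (Birc3).

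The 10 promoters fell into 2 kinds by base composition, which was measured from 250 bp before to 49 bp after the first start. Promoters with at least 50% GC and a CpG frequency of at least 0.6 of that expected from their C and G content were called CpG-rich. The receptor genes and Birc3 had CpG-poor promoters, with observed over expected ratios of 0.352 (Tnfrsf13b), 0.425 (Tnfrsf13c), 0.332 (Tnfrsf17), 0.261 (Cd40) and 0.389 (Birc3). The adaptors, Map3k14 and Birc2 had CpG-rich ones, with ratios of 0.912 (Traf2), 1.2 (Traf3), 0.83 (Traf6), 0.763 (Map3k14) and 1.02 (Birc2). The promoter of Traf3 stood at the top, with 84% GC and a ratio above that of 99.5% of protein-coding genes. No receptor promoter reached the median ratio of 0.552.

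Promoter peaks were more frequent at CpG-rich promoters throughout the genome. In the MIZ-1WT list 50.9% of 9527 CpG-rich and 15.6% of 12424 CpG-poor promoters of protein-coding genes had one, and in the MIZ-1DPOZ list 71.7% and 31%. Of the 5 CpG-rich promoters considered here, 2 had a MIZ-1WT and 3 a MIZ-1DPOZ peak, and of the 5 CpG-poor ones 0 and 1, the 1 being Tnfrsf13c. These counts run the same way as the shares of all genes, and with 5 promoters of each kind no difference from them can be seen. Traf2 and Birc2 were the CpG-rich genes without a peak. The 100 bases before their first starts are shown beside those of Tnfrsf17, whose promoter had the lowest GC content of the 10, at 49.7%.
Traf2, chr2:25546941-25547040, minus strand: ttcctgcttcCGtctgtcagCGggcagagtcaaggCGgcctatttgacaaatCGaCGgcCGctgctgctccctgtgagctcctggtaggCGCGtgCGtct
Birc2, chr9:7837065-7837164, minus strand: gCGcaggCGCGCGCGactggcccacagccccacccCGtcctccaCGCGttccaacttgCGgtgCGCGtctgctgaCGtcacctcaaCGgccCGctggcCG
Tnfrsf17, chr16:11313712-11313811, plus strand: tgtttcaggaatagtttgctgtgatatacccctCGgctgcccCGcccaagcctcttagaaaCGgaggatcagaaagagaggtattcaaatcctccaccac

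**Figure D4:**
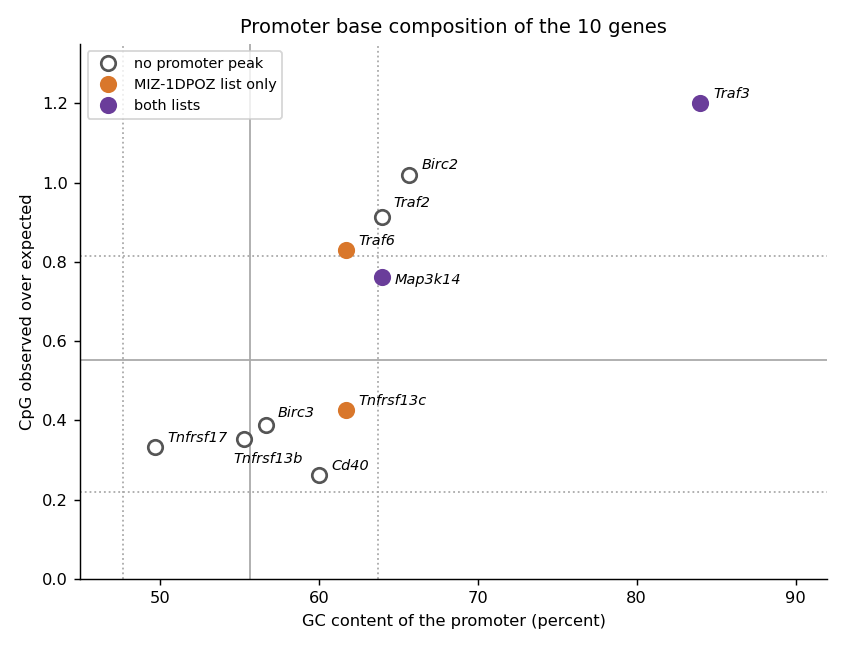
GC content in percent (horizontal axis) and ratio of observed to expected CpG (vertical axis) of the 10 promoters, colored by the lists in which the gene has a promoter peak. Solid grey lines are the medians and dotted lines the quartiles of all protein-coding genes. Traf3 lies far to the upper right, and Traf2 and Birc2 lie among or above the genes with peaks although they have none.

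A further 33 genes of the same signaling pathway, taken as ligands, other TRAF proteins, kinases with their adaptors, ubiquitin enzymes, NF-kB subunits and inhibitors, set the 10 genes in context. Of the 33, 14 had a MIZ-1WT promoter peak (42.4%), 23 a MIZ-1DPOZ promoter peak (69.7%) and 11 both (33.3%), against 30.9%, 48.7% and 26.6% of all protein-coding genes. These shares were above those of all protein-coding genes and those of the 10 genes were below, and this contrast was not tested. The list of 33 was chosen with earlier results of these data known, so the contrast is a description only. The MIZ-1DPOZ list was also limited to the length of the MIZ-1WT list. Of the 33, 11 then had a MIZ-1DPOZ promoter peak, fewer than the 14 with a MIZ-1WT one. The share of all protein-coding genes at that length is not given here, so this fall cannot be called particular to the 33. The counts by role below are from the full lists. The NF-kB subunits stood highest, with MIZ-1WT peaks at 4 of 5 and MIZ-1DPOZ peaks at all 5. Of all protein-coding genes 30.9% and 48.7% had one. With only 5 genes in this role, singled out for its high counts, this is a description only. The subunit without a MIZ-1WT peak was Relb, partner of the NF-kB2 product.

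The 5 genes whose weaker promoter peak was strongest were Rel, Nfkb2, Nfkb1, Rela and Tnfaip3. Rel, a subunit of canonical NF-kB, had a pileup of 11 in MIZ-1WT and 12 in MIZ-1DPOZ. Nfkb2, whose precursor is the target of the NIK pathway, had 13 and 14. Nfkb1 had 10 and 13 and Rela, the p65 subunit, 10 and 13. Tnfaip3, which encodes the inhibitor A20, had 11 and 10. These were of the same order as the Traf3 and Map3k14 promoter peaks. No promoter peak was found in either list at 7 genes, namely Cd40lg, the ligand of CD40, Traf7, Ikbkg, Rbck1, Sharpin, Nfkbie and Cyld.

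The ligands and the other TRAF genes, like the receptors, had no MIZ-1WT promoter peak, in 0 of 3 and 0 of 4. Of all protein-coding genes 30.9% had one, and with so few genes in each role no difference from that share can be seen. In the longer MIZ-1DPOZ list 2 ligand genes and 3 TRAF genes had one, against 48.7% of all protein-coding genes. The ligand and TRAF genes with a peak are named because they are few, after their values were seen. Tnfsf13b, the BAFF gene, had a pileup of 15 with a −log10 q of 8.91, and Tnfsf13, which encodes APRIL, had 8 with 2.49. The TRAF genes were Traf1, Traf4 and Traf5, with pileups of 10, 14 and 13. Whether peaks of these sizes would have been called at MIZ-1WT depth was not tested. The kinases and adaptors had MIZ-1WT peaks at 3 of 7 and MIZ-1DPOZ peaks at 4, the ubiquitin enzymes at 2 and 4 of 6, and the inhibitors at 5 of 8 in each list.

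**Figure D5:**
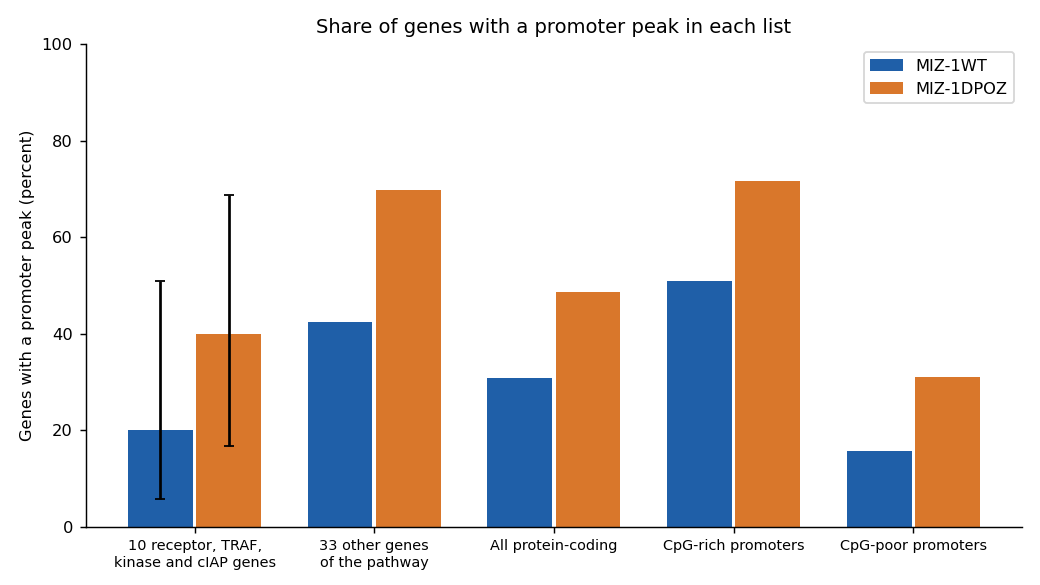
Percent of genes with a promoter peak (vertical axis, from 0) in the MIZ-1WT (blue) and MIZ-1DPOZ (orange) list, for the 10 genes, the 33 other pathway genes, all 21951 protein-coding genes, and those with CpG-rich and CpG-poor promoters. Error bars on the 10 genes are 95% Wilson intervals, and the other bars carry none. The 10 genes, at 20% and 40%, are below the protein-coding genes at 30.9% and 48.7%, within wide intervals.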

How the data were processed

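MIZ-1 ChIP-seq was done on B220+ splenocytes, with 1 ChIP and 1 input library for each of 2 genotypes. Narrow peaks had been called per genotype by the authors with MACS2 on mm10. The study's methods name bwa as aligner, and the submitters' processing notes name Bowtie2 2.2.6 and MACS2 2.1.0, so the aligner is uncertain. The cutoff and the handling of duplicates are not given in the sources used here. Per peak, the deposited files hold a score, the fold enrichment (a ratio) at the summit, the −log10 p-value and −log10 q-value, and the distance of the summit from the peak start. The input libraries were not analysed here.

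Peaks were placed on GENCODE basic transcripts (mouse release 21, GRCm38, the same assembly as mm10; 1-based coordinates), and no peak passed a chromosome end. The window of 2000 bp before to 1000 bp after a start is that of the study's methods. All 10 genes are described. Of the other pathway genes, those named are the 5 with the largest smaller −log10 q in the 2 lists and those without a promoter peak, and in addition Relb, Tnfsf13b, Tnfsf13, Traf1, Traf4 and Traf5, named after their values were seen. The genes and lists were chosen with earlier results of these data known. Whole-number pileups and local backgrounds were solved from fold and −log10 p under MACS2's formulas, and they gave the p-value back within 0.001 for 99.97% of MIZ-1WT and 99.99% of MIZ-1DPOZ peaks. The solving step was tested on simulated data. The total depth of the libraries is unknown, and their ratio, 1.34, came from the most frequent background (0.86 and 1.348 fragments) over the smallest peak width (148 and 173 bp). Intervals are at 95%, exact Poisson for pileups and exact binomial for ratios with the depth ratio held fixed, and they cover counting error only. Sequence, GC content and soft-masking were read from GRCm38.p6, with windows of 50 bases to each side of a summit. Python 3.11.15, pandas 2.3.3, SciPy 1.17.1 and numba 0.67.0 were used. Alternatives were stricter score limits, equal list sizes, other windows, transcripts and overlap rules, another scaling and another background.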

Additional observations from a re-analysis of the deposited data

How the results depend on the processing

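No paired analysis was possible because only 1 ChIP library was made of each genotype, and for the same reason no library could be left out. The genes with promoter peaks were the same in number with windows of 500 bp, with summits required inside the window, with protein-coding transcripts only, with each peak given to its nearest start and when −log10 q had to reach 2. When −log10 q had to reach 5, the counts fell to 1 gene with a MIZ-1WT promoter peak, 1 with both, 1 with overlapping promoter peaks, 1 MIZ-1WT and 2 MIZ-1DPOZ gene body peaks, 0 overlapping gene body peaks and 6 other pathway genes with a MIZ-1WT promoter peak. The genes with a MIZ-1DPOZ promoter peak went from 4 to 3, with Tnfrsf13c lost, and the other pathway genes with one from 23 to 17. At a fold enrichment of at least 5, promoter peaks were left at 1 gene in MIZ-1WT, 3 in MIZ-1DPOZ and 1 in both. There were then 2 MIZ-1WT and 2 MIZ-1DPOZ gene body peaks. With the MIZ-1DPOZ list limited to the 34209 peaks of largest −log10 q, 2 genes had a MIZ-1DPOZ promoter peak, there were 0 MIZ-1DPOZ gene body peaks and 0 overlapping gene body peaks, and 11 other pathway genes had a MIZ-1DPOZ promoter peak. The cause of these changes was not tested beyond their construction, which leaves fewer peaks. The shares of all protein-coding genes under these limits are not given here, so the falls cannot be called particular to these genes. With reciprocal overlap of 50%, or with summits within 100 bp, 1 gene had overlapping promoter peaks and there was 1 gene body pair. Apart from the choice of background genes, 33 of the alternative values stayed within the limits set for a count or ratio and 19 moved. The share of the 10 genes with a promoter peak differed from that of protein-coding genes by -10.9 (MIZ-1WT) and -8.67 (MIZ-1DPOZ) percentage points. It was 3.13 and 11.1 points above that of all 55450 annotated genes, of which 16.9% and 28.9% had one. Its direction thus depends on the background, and only 21951 of the 55450 code for proteins, as all 10 genes do.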
